A study of Mus musculus with 10 samples.

Results

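The genes that flank Il6 on mouse chromosome 5 were compared between retinas of mice labelled as interleukin-6 knockout and wild type. They were chosen by position and by count: rows of the deposited table that start within 10 Mb of Il6 (20013114 to 40019981, GRCm38) and reach 10 or more counts in at least 5 libraries, whichever group these come from. Il6 itself and 5 further genes are left out by the choice. Of 434 rows in the window, 257 met the count condition, and 252 of the 36115 rows of the table are the flanking genes described here. There were 5 libraries of the genotype B6.129S2-Il6tm1Kopf/J, named K1 to K5, and 5 of wild type, named W1 to W5 in accession order. The labels give both groups a C57BL/6 background, an age of 3 months and no treatment, and give no litter, sex, batch or pooling. Whether each library is a different animal is not stated, and the p-values below therefore describe the scatter of these 10 samples, some of which may be technical.

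Il6 encodes a cytokine that signals by way of gp130, a shared receptor chain, to the transcription factor STAT3. A targeted allele made in embryonic stem cells of one strain and then crossed into another stays on a stretch of donor chromosome, which shortens with each generation of backcrossing. The genes beside the locus are therefore a usual control in congenic mice, because they can come from the donor strain even where the rest of the genome does not. The strain name gives 129S2 as the donor. The labels give no number of backcrosses and no length of donor sequence, and gene counts carry no alleles, so which strain the flanking genes came from was not tested.

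Il6 (ENSMUSG00000025746.11, chromosome 5, 30013114 to 30019981) had 3, 3, 5, 7 and 4 counts in K1 to K5, and 0, 0, 1, 1 and 1 counts in W1 to W5. At face value, the direction of these few counts goes against the labels. Gene counts carry no alleles, so the count cannot check the genotype. The cause of this direction was not tested. Groups are named below as labelled. Library totals ran from 32783048 to 38517067 counts in the libraries labelled knockout and from 30433373 to 38857374 counts in wild type. All 19 retinal marker genes checked stood above 1 CPM (counts scaled by library size) in all 10 libraries. The summed level of 12 markers of pigment epithelium, lens, cornea and blood ran from 146 to 234 CPM in the libraries labelled knockout and from 33.9 to 307 CPM in wild type. Much of this was Ttr, a pigment epithelium marker, at 92.6 to 164 CPM in the libraries labelled knockout and 13.0 to 214 CPM in wild type. The lens genes Cryaa, Crygs and Mip were at 0 in some libraries. In bulk tissue, fewer cells of a type and less RNA per cell cannot be told apart.

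No flanking gene passed the test. Of the 249 flanking genes tested, 0 had an adjusted p under 0.05 in edgeR's quasi-likelihood test with Benjamini-Hochberg adjustment, where 2.03% of all 18965 genes tested did (385 genes). The 5 genes of the window that the choice leaves out were not called either. An unadjusted p under 0.05 was reached by 27 flanking genes (10.8%), against 13.8% of all genes. Of the 27, 9 were positive (3.61% of flanking genes, against 6.78% of all genes) and 18 negative (7.23% of flanking genes, against 7.03% of all genes). In limma-voom the count was 0, where 1.80% of all genes were called. DESeq2 called 5, or 1.98% of the 252 it tested, against 3.07% of all genes. Of these, 4 were higher (1.59% of flanking genes, against 1.28% of all genes) and 1 lower (0.397% of flanking genes, against 1.78% of all genes). Without a low-count filter edgeR called 3 against 1.95% of all genes, 2 of them higher (0.794% of flanking genes, against 0.825% of all genes) and 1 lower (0.397% of flanking genes, against 1.12% of all genes). The authors' deposited table also gives 5 of them an adjusted p under 0.05, against 3.37% of the 21411 genes with a deposited adjusted p. The submitters' notes name DESeq2 too, and these are the same 5 genes that DESeq2 called here. The deposited values are therefore no separate line of evidence beside DESeq2. All flanking genes met the count condition, as did 19168 rows of the whole table. The shares of all genes for DESeq2, edgeR without a filter and the deposited comparison were over more genes (24874, 36115 and 21411), including some of lower count. With both directions counted together, the called share of flanking genes lay below that of all genes in each of these 5 analyses, while the shares by direction lay on both sides of it. None of these differences was tested. The flanking genes and these counts were set out with earlier results on the same libraries known.

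The differences were also small in size. Fold changes here are libraries labelled knockout over wild type on the log2 scale. Their median was -0.0039 over the flanking genes and 0.0018 over all genes, and 122 flanking genes were positive and 127 negative. The median size without regard to sign was 0.099 in flanking genes and 0.115 in all genes, and 10 flanking genes (4.02%) reached 0.5, against 9.24% of all genes. The 95% interval of the log2 fold change lay between -1 and 1 in 228 of the 249 (91.6%), and between -0.5 and 0.5 in 150 (60.2%). Over all genes these shares were 86.0% and 58.9%. For the other flanking genes the data cannot show a difference of that size to be absent. The median level of the flanking genes was 12.7 CPM, close to the 13.9 CPM of all genes tested, and the median standard error was 0.127 against 0.120.

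**Figure D1:**
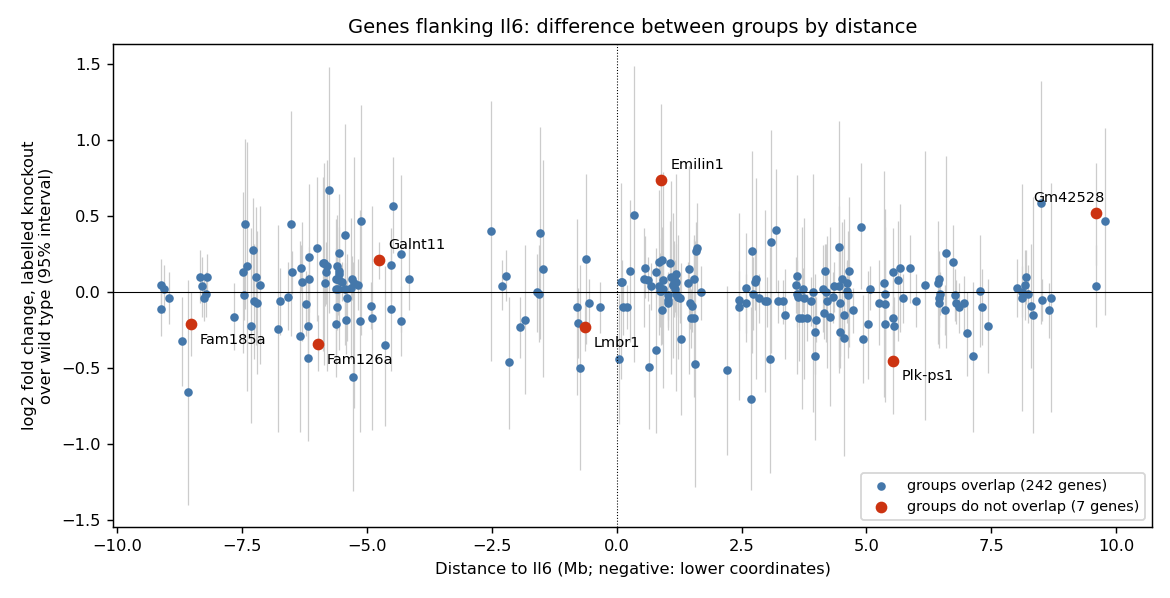
Log2 fold change (libraries labelled knockout over wild type) of the 249 flanking genes tested, with 95% intervals, against the distance of each gene to Il6 in Mb. Points lie on both sides of 0 at every distance, and none was called. Of the 7 genes whose groups do not overlap (red), 2 lie under 1 Mb from Il6, 0 from 1 to 2 Mb, 1 from 2 to 5 Mb and 4 from 5 to 10 Mb.

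No flanking gene was called at any distance from Il6. Under 1 Mb from Il6, 0 of 31 genes were called and 4 had an unadjusted p under 0.05 (12.9%). The unadjusted counts were 2 of 34 genes (5.88%) from 1 to 2 Mb, 11 of 69 (15.9%) from 2 to 5 Mb, and 10 of 115 (8.70%) from 5 to 10 Mb. The shares go up and down with distance and lie on both sides of the 13.8% of all genes. The median size of the log2 fold change was 0.104, 0.079, 0.110 and 0.100 in these 4 bins, from near to far. On the lower side alone it was 0.201 over 7 genes, 0.167 over 6, 0.186 over 14 and 0.123 over 66, and on the higher side 0.101, 0.070, 0.089 and 0.083. Groups did not overlap in 2 of the 31 genes under 1 Mb (6.45%), in 0 of 34, in 1 of 69 (1.45%) and in 4 of 115 (3.48%), against 3.48% of all genes tested. Whether these sizes and shares differ with distance was not tested. On the side of lower coordinates 93 genes were tested, with a median log2 fold change of 0.03, and on the side of higher coordinates 156, with a median of -0.01. Only 7 of the genes under 1 Mb lie on the lower side, and 6 of them were negative, whereas 18 of the 24 on the higher side were positive.

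The rest of chromosome 5 held called genes at rates near that of the genome. From 10 to 20 Mb from Il6, 2 of 83 genes were called (2.41%), from 20 to 40 Mb 3 of 132 (2.27%), and beyond 40 Mb 19 of 864 (2.20%). These bins differ in level and precision, with medians of 1.53, 6.55 and 14.1 CPM and median standard errors of 0.266, 0.142 and 0.118. The flanking genes had 12.7 CPM and 0.127. The first of these bins also holds Magi2, which starts outside the window but ends 9.31 Mb from Il6. The called gene nearest to Il6 was Gnat3, which encodes the taste cell G protein gustducin and lies about 12 Mb from Il6 towards lower coordinates. It averaged 6.70 ± 0.809 CPM in the libraries labelled knockout and 2.74 ± 0.763 CPM in wild type (SD, n = 5 each), and edgeR called it at an adjusted p of 0.00120 (log2 fold change 1.29). On the other side the nearest was Gm43508, at 14.6 Mb, at 1.33 on the log2 scale (edgeR adjusted p = 0.0278). Just outside the edges of the window, Magi2 and Gm21009 had log2 fold changes of -0.14 and 0.25, and Gm4754 and Rab28 had 0.28 and 0.04, none of them called.

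**Figure D2:**
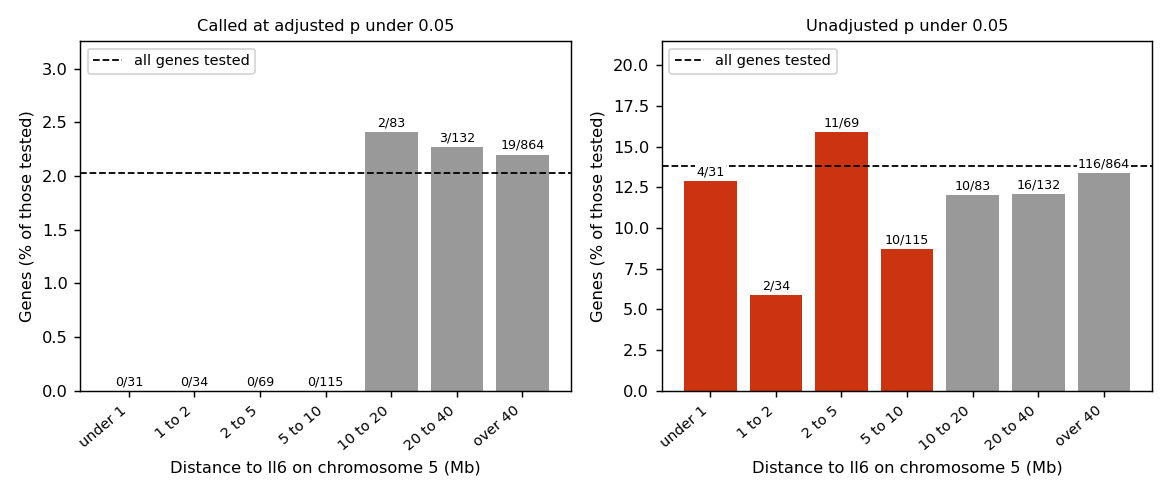
Share of tested genes called at an adjusted p under 0.05 (left) and with an unadjusted p under 0.05 (right), by distance to Il6 on chromosome 5 in Mb. Red bars are flanking genes, grey bars the rest of the chromosome, numbers above the bars are genes of those tested, and dashed lines mark all 18965 genes (2.03% and 13.8%), with 0 called genes in the flanking bins.

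The genes next to Il6 were read one by one. Tyms, the thymidylate synthase of DNA precursor synthesis, lies 38.2 kb away on the higher side (30058202 to 30073617, minus strand). It had 3.05, 4.21, 2.62, 2.58 and 4.34 CPM in K1 to K5 and 3.15, 4.23, 5.89, 5.09 and 4.38 CPM in W1 to W5. The groups overlap, and W3 and W4 are the highest libraries. The log2 fold change was -0.44 ± 0.20 (SE, n = 5 each), with a 95% interval of -0.87 to -0.01 and an edgeR adjusted p of 0.342.

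Hadha and Hadhb encode the subunits of the mitochondrial trifunctional protein, which oxidises long-chain fatty acids, and are transcribed away from each other 98.3 and 135 kb from Il6. Hadha had 94.2, 109, 99.3, 93.1 and 97.9 CPM in K1 to K5 and 97.7, 91.4, 89.2, 102 and 90.3 CPM in W1 to W5. Hadhb averaged 39.5 ± 4.03 CPM in the libraries labelled knockout and 42.5 ± 3.63 CPM in wild type (SD, n = 5 each). On the log2 scale Hadha differed by 0.07 and Hadhb by -0.10, with edgeR adjusted p-values of 0.704 and 0.631, and 95% intervals of -0.07 to 0.21 and -0.28 to 0.07. Between Tyms and Hadha lies Garem2, an adaptor of growth factor signalling, which was near the limit of detection at 0.334 to 0.517 CPM in the libraries labelled knockout and 0.185 to 0.476 CPM in wild type. It shares exon bases with Hadha on the opposite strand, and the sources used here do not give the strand setting, so its reads are uncertain.

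On the lower side the nearest are Ube3c, a ubiquitin ligase, at 337 kb, Nom1, a nucleolar protein, at 555 kb, and the long noncoding 4632411P08Rik at 623 kb. Ube3c had 95.9, 79.3, 79.5, 75.8 and 72.6 CPM in K1 to K5 and 83.5, 89.3, 87.0, 79.6 and 92.7 CPM in W1 to W5. K1 is the highest of the 10 libraries and K5 the lowest. Log2 fold changes were -0.10 for Ube3c, -0.07 for Nom1 and 0.22 for 4632411P08Rik, with edgeR adjusted p of 0.625, 0.762 and 0.775.

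**Figure D3:**
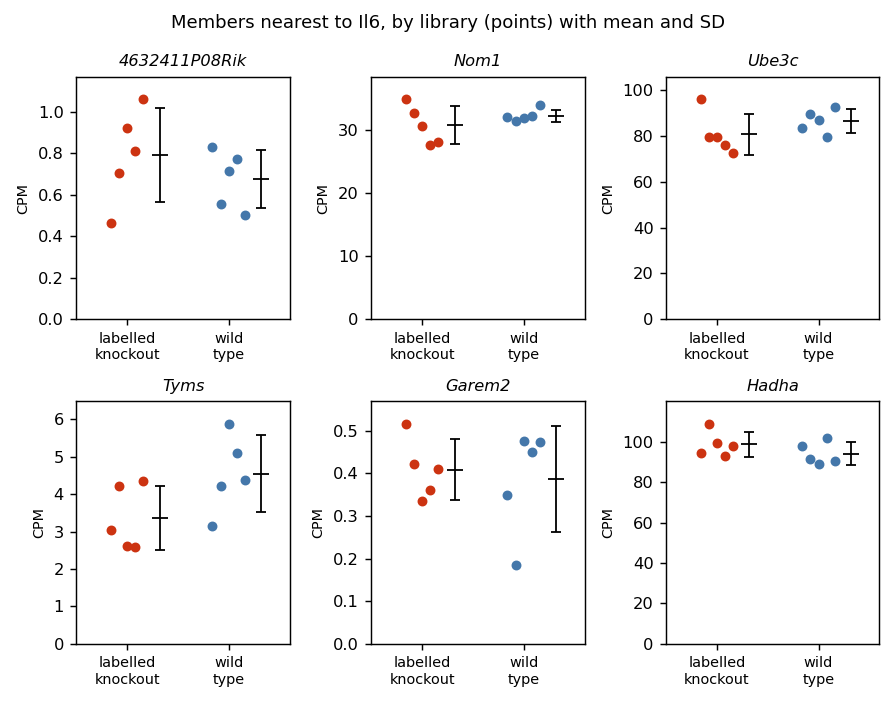
Level in CPM of the 6 flanking genes nearest to Il6, 3 on each side in chromosomal order, in libraries labelled knockout (red, left) and wild type (blue, right), with the mean and SD (n = 5 each) beside the points. The groups overlap in all 6 genes, and Tyms has the largest difference, -0.44 on the log2 scale.

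Promoter sequence is shown for 3 of the genes close to Il6. Tyms is the nearest, Hadhb carries a match to the STAT motif, and Lmbr1, taken up below, is the nearest gene whose groups do not overlap. Each is the 250 bases before the RefSeq start, 5′ to 3′ on the gene's strand (RefSeq, GRCm38.p6), with matches to TTCNNNGAA, the core of a STAT site, in capitals.
Tyms (chr5:30073626-30073875, minus strand): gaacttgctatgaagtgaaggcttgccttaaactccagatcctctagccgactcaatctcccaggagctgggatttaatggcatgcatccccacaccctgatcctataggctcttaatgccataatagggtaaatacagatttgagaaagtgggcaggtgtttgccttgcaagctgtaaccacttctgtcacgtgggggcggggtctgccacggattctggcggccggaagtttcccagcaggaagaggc
Hadhb (chr5:30155003-30155252, plus strand): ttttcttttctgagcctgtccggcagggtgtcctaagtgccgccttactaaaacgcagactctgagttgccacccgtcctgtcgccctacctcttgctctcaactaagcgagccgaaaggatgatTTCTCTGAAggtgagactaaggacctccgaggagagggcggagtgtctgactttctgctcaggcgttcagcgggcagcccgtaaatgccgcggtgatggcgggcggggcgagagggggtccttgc
Lmbr1 (chr5:29378391-29378640, minus strand): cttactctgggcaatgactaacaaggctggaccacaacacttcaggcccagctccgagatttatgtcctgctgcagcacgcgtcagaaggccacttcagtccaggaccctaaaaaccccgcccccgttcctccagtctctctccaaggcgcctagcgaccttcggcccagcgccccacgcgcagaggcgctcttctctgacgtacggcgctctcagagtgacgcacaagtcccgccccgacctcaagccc
The motif reads the same on both strands. It was found in 7 of 197 promoters of flanking genes (3.55%), which belong to 7 of the 165 flanking genes with a promoter in the table, and in 7.02% of all 32851 promoters. Hadha and Hadhb share a match, since their promoters overlap, and so do Tmem129 and Tacc3. The match is in the letters only.

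In 7 of the 249 flanking genes (2.81%) every library labelled knockout lay above or below every wild-type library, against 3.48% of all genes tested. They were chosen for description after their values were seen, and none was called. Fam126a encodes hyccin, which helps to place a lipid kinase at the plasma membrane and is needed for myelination in humans. It lies 5.98 Mb from Il6 (23915276 to 24030690) and had the smallest edgeR adjusted p of the flanking genes. It had 20.3, 19.5, 18.9, 19.1 and 19.3 CPM in K1 to K5 and 20.3, 28.2, 24.8, 26.0 and 23.6 CPM in W1 to W5. The libraries labelled knockout are close together, W2 is the highest, and W1 meets K1. The log2 fold change was -0.34 ± 0.09 (SE, n = 5 each), with an edgeR adjusted p of 0.0585, and of 0.0178 without W1. DESeq2 called it lower, and the authors' deposited table gives it an adjusted p of 0.0171.

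Galnt11, an enzyme that starts mucin-type O-glycans, lies 4.75 Mb away. It had 45.7, 43.5, 46.2, 44.0 and 43.6 CPM in K1 to K5 and 39.8, 38.5, 37.3, 37.6 and 39.8 CPM in W1 to W5. The gap between the groups is wider than the range of either, while the log2 fold change is small, 0.21 ± 0.06 (SE, n = 5 each), with an edgeR adjusted p of 0.0824. Its exons overlap those of E130116L18Rik on the opposite strand, so some of its reads are uncertain. DESeq2 called it, and the authors' deposited table gives 0.0339.

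Emilin1 encodes a glycoprotein of elastic fibres and vessel walls, 893 kb from Il6. It had 7.81, 8.13, 9.69, 9.03 and 8.89 CPM in K1 to K5 and 7.48, 6.06, 2.01, 5.27 and 5.42 CPM in W1 to W5. W3 lies lowest and W1 comes near K1. Its log2 fold change of 0.74 ± 0.24 was the largest in size among the flanking genes, with a 95% interval of 0.23 to 1.24 and an edgeR adjusted p of 0.148. It was called by DESeq2 and in edgeR without a low-count filter (adjusted p = 0.0310). The authors' deposited table gives it an adjusted p of 0.0332.

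Lmbr1, a membrane protein whose intron holds the limb enhancer of Shh, lies 635 kb from Il6. It had 32.3, 29.1, 30.6, 25.6 and 27.9 CPM in K1 to K5 and 32.4, 36.4, 33.2, 33.5 and 35.2 CPM in W1 to W5. K1 and W1 all but meet. The fitted difference was -0.23 on the log2 scale (edgeR adjusted p = 0.147). The remaining 3 were Fam185a (-0.21), the polo-like kinase pseudogene Plk-ps1 (-0.45) and the unverified transcript Gm42528 (0.52), with edgeR adjusted p of 0.357, 0.235 and 0.124. DESeq2 called Gm42528 (adjusted p = 0.0495), and the authors' deposited table gives it 0.0453. With DESeq2 size factors in place of TMM factors, 6 genes did not overlap, and Lmbr1 and Fam126a were no longer among them. Fam185a overlapped with upper-quartile factors, and Emilin1 with total-count scaling.

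The long noncoding 1700096K18Rik, 4.48 Mb from Il6, was also taken up after its values were seen. It averaged 13.1 ± 3.03 CPM in the libraries labelled knockout and 8.76 ± 1.06 CPM in wild type (SD, n = 5 each), and K2 lies below W4. It differed by 0.57 on the log2 scale (edgeR adjusted p = 0.0603), with edgeR adjusted p of 0.0460 without K1 and 0.0296 without K2. It was also called by DESeq2 (adjusted p = 0.00801) and by edgeR without a low-count filter (adjusted p = 0.0142). The authors' deposited table gives it an adjusted p of 0.00753.

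**Figure D4:**
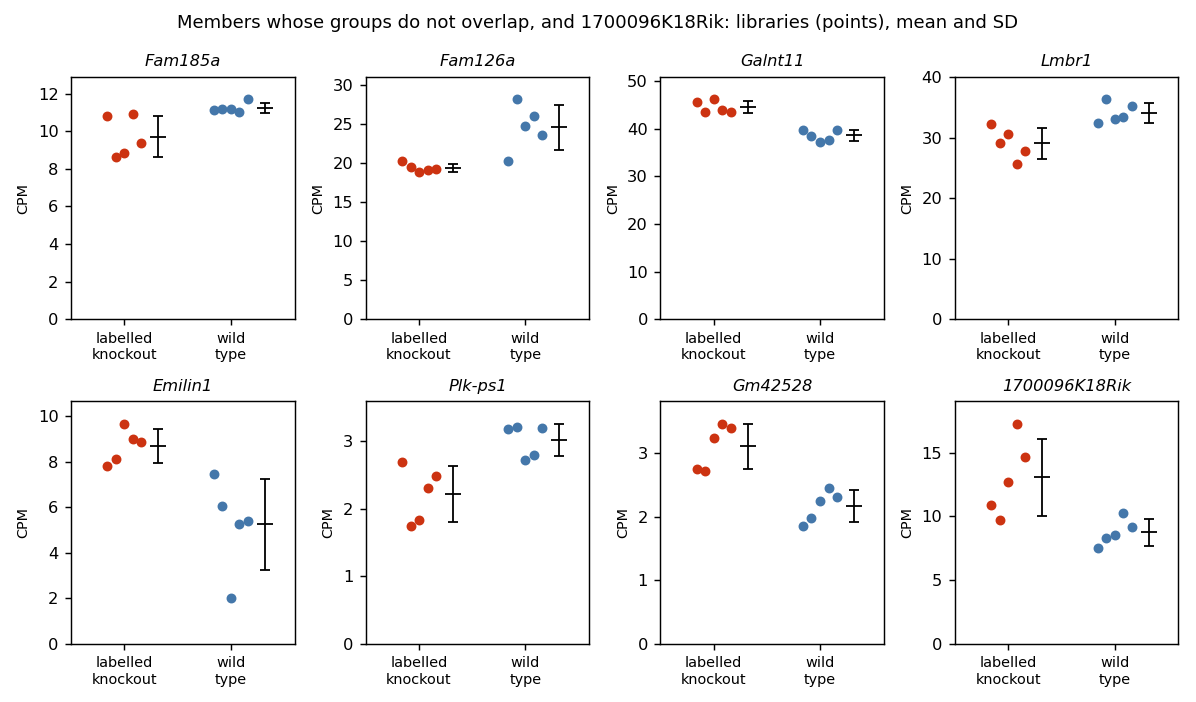
Level in CPM of the 7 flanking genes whose groups do not overlap and of 1700096K18Rik, in libraries labelled knockout (red, left) and wild type (blue, right), with the mean and SD (n = 5 each) beside the points. The margins differ between genes: K1 and W1 meet in Fam126a at 20.3 CPM, while in Galnt11 K2 stands at 43.5 and W1 at 39.8 CPM. In Emilin1 K1 at 7.81 CPM lies near W1 at 7.48 CPM, and W3 is the lowest library at 2.01 CPM.

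The flanking genes were also grouped by known role. Since no flanking gene was called, no group could hold a called gene. The median log2 fold changes of 6 of the 7 groups lay between -0.037 and 0.015. Among 21 chromatin and transcription regulators, 9 were positive and 12 negative (median -0.033). Kmt2c and Kmt2e, histone H3 lysine methyltransferase family members, had log2 fold changes of 0.18 and 0.13. Nsd2, which methylates lysine on histone H3, had -0.17. Cenpa, the histone H3 variant of centromeres, had 2.07, 1.92, 2.09, 1.89 and 2.20 CPM in K1 to K5 and 1.91, 2.29, 3.30, 3.05 and 3.70 CPM in W1 to W5. W1 falls within the range of the libraries labelled knockout while W2 to W5 lie above it, and the fitted difference was -0.49 on the log2 scale (edgeR adjusted p = 0.260). Rbm33, an RNA-binding protein, had the largest adjusted p of the group (0.994).

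The developmental genes lay mostly on the negative side, with 7 of 8 negative and a median of -0.177, where 9403 of all 18965 genes were negative. The positive one was Evc, a ciliary protein of hedgehog signalling, at 0.01. The list also holds Lmbr1 and Insig1, each at -0.23, although Lmbr1 encodes a membrane protein and Insig1 acts on sterol synthesis. Shh, the hedgehog ligand, averaged 4.72 ± 0.639 CPM in the libraries labelled knockout and 4.76 ± 0.741 CPM in wild type (SD, n = 5 each), a log2 fold change of -0.01 with a 95% interval of -0.33 to 0.31. The homeobox gene Hmx1, which acts in eye and ear development, averaged 26.7 ± 2.02 CPM in the libraries labelled knockout and 30.9 ± 4.15 CPM in wild type (-0.21, edgeR adjusted p = 0.314). Insig1, which holds back sterol synthesis, had 67.3, 74.6, 74.4, 73.7 and 70.6 CPM in K1 to K5 and 64.1, 98.3, 82.7, 83.9 and 92.9 CPM in W1 to W5 (-0.23, edgeR adjusted p = 0.296). Without W1, the lowest of all 10 libraries, its edgeR adjusted p was 0.0482.

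Of 20 neuronal genes, 9 were positive and 11 negative (median -0.037). Htr5a, a serotonin receptor, averaged 2.70 ± 0.635 CPM in the libraries labelled knockout and 3.73 ± 0.852 CPM in wild type (SD, n = 5 each), at -0.46 on the log2 scale (edgeR adjusted p = 0.328). Reln, the secreted guide of neuron positioning, had -0.16, Htt, which encodes huntingtin, -0.12, and the neuronal kinase gene Cdk5 0.02. Nsg1, an endosomal protein of neurons, stood at 0.00 with an interval of -0.16 to 0.17. Otof, the calcium sensor of hair cell synapses, had 0.51 at a low level of 0.499 ± 0.349 CPM in the libraries labelled knockout and 0.343 ± 0.163 CPM in wild type, and its interval, -0.46 to 1.49, takes in both directions.

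Of 22 mitochondrial and metabolic genes, 9 were positive and 13 negative (median -0.034). Mrpl33, a protein of the large mitochondrial ribosome subunit, had 20.7, 19.7, 20.8, 22.9 and 24.0 CPM in K1 to K5 and 20.6, 18.4, 15.9, 18.7 and 16.4 CPM in W1 to W5. It shares exon bases with Gm43809 on the same strand. Of the wild-type libraries, W1 alone lies within the range of those labelled knockout, and the fitted difference was 0.27 on the log2 scale (edgeR adjusted p = 0.183). Nat8l, which makes N-acetylaspartate, had -0.18, and Acox3, a peroxisomal oxidase, -0.22. Pisd, which makes phosphatidylethanolamine in mitochondria, had -0.01 (edgeR adjusted p = 0.987).

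The other 3 groups had medians of 0.015 for 11 cytoskeleton and cilia genes, -0.021 for 14 kinases, phosphatases and small GTPases, and -0.003 for 15 genes of protein folding, degradation and trafficking. In the first, the smallest adjusted p was that of Emilin1, which the list holds although it encodes a protein of the extracellular matrix, and the largest that of Agbl5, a tubulin deglutamylase (0.975). In the second, the splicing-factor kinase Srpk2 had 0.16 (edgeR adjusted p = 0.328), and it shares exon bases with Kmt2e on the opposite strand. Tbc1d14, a regulator of autophagy, had -0.01. In the third, Rint1, a tether of Golgi and endoplasmic reticulum vesicles, had -0.22 (edgeR adjusted p = 0.298), and Babam2, a subunit of a deubiquitinase complex of DNA repair, had -0.00. Slc4a2, an anion exchanger in none of these groups, averaged 46.5 ± 5.57 CPM in the libraries labelled knockout and 38.8 ± 1.96 CPM in wild type (SD, n = 5 each). It differed by 0.26 on the log2 scale (edgeR adjusted p = 0.140, and 0.0441 without K1). Slc4a2, Rint1 and Agbl5 also share exon bases with genes on the opposite strand.

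By length-scaled level (CPM per kb of exon, mean of the 10 libraries), the most abundant flanking genes were Mrfap1, a small nuclear protein gene, at 150.2 and Mapre3, which encodes a microtubule end-binding protein of neurons, at 76.0. Mrfap1 had 264, 263, 229.9, 243 and 227 CPM in K1 to K5 and 229.7, 288, 262, 227 and 241 CPM in W1 to W5. Mapre3 had 253, 261, 276, 295 and 290.0 CPM in K1 to K5 and 242, 219, 255, 268 and 269.5 CPM in W1 to W5, and the groups of both genes overlap. Their log2 fold changes were -0.02, with an interval of -0.19 to 0.15, and 0.13, with an interval of -0.03 to 0.29. Of the flanking genes, 58 stood above 10 on the length-scaled level and 73 below 1.

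The flanking genes are 173 protein-coding genes, 28 long noncoding RNA genes, 28 transcripts that the annotation marks TEC (unverified), 21 pseudogenes, 1 other RNA and 1 row without a match in GENCODE M21 (Gm1043). Among the 172 protein-coding genes tested, 77 were positive and 95 negative. Among the 20 pseudogenes tested, 14 were positive, with a median log2 fold change of 0.17, against 806 of 1271 and a median of 0.12 for pseudogenes of the whole table. Exon bases were shared with a gene on the opposite strand by 78 flanking genes and with a gene on the same strand by 19, and counts of these are uncertain.

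The count condition itself looks at no group, but 8 flanking genes met it with all 5 libraries labelled knockout and fewer than 5 in wild type, and 1 the other way. Keeping the 224 tested flanking genes at 10 or more counts in all 10 libraries left the count of called genes at 0, where 1.76% of all genes under the same filter were called. Just inside the condition, 6 genes reached 10 counts in exactly 5 libraries. Among them Poln, a DNA polymerase, had 12, 13, 11, 7 and 9 counts in K1 to K5 and 10, 4, 10, 9 and 7 counts in W1 to W5. Just outside, 4 rows reached it in 4 libraries, among them Cpz, a carboxypeptidase, with 14, 9, 16, 6 and 3 counts in K1 to K5 and 8, 13, 12, 7 and 5 counts in W1 to W5. Poln, 2310074N15Rik and Gm43850 were too low for the main test. Of the 177 rows of the window under the condition, 56 are processed pseudogenes and 38 protein-coding, and 2 had groups that do not overlap.

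The libraries were about as far apart over the flanking genes as over the whole table. The median distance of a library from the median of the other libraries of its group was 0.124 to 0.161 on the log2 scale in the libraries labelled knockout and 0.118 to 0.200 in wild type. W2 was the farthest, at 0.200 over the flanking genes and 0.194 over all genes, and W1 differed most between them, at 0.167 and 0.135. The summed level of the 252 genes ran from 8732 to 9092 CPM in the libraries labelled knockout and from 8713 to 9197 CPM in wild type.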

How the data were processed

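RNA from mouse retinas was sequenced in 5 libraries labelled Il6 knockout and 5 of wild type. The authors deposited raw read counts per gene. The submitters' processing notes name STAR 2.5.3a, featureCounts 1.15.2 and the build GRCm38.p5, then DESeq2 1.14, besides bcl2fastq and FastQC. How strand and multiply matching reads were handled is not stated in them. A comparison by the authors stands beside the counts, per the file headers. Its deposited p-values were used for the genes named, and its deposited log2 fold changes and mean signal were not printed.

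All genes were fitted with edgeR 4.0.16 (filterByExpr, TMM factors, quasi-likelihood test, genotype as the only term), which tested 18965, with Benjamini-Hochberg adjustment over all of them and calls at an adjusted p under 0.05. CPM used TMM-scaled library sizes, with factors from 0.954 to 1.04. Standard errors are the absolute log2 fold change over the square root of F, and 95% intervals use the t distribution. Alternatives used DESeq2 1.42.0, limma 3.58.1, other factors and filters, and each library left out. The fits were also run on counts simulated from edgeR's own estimates of scatter in these data, which cannot show how well that model holds. Exon lengths, biotypes and overlaps come from GENCODE M21 on GRCm38, which matched 251 of the 252 genes. Genes named were those called (none), the 3 nearest on each side, the 2 of highest length-scaled level, and the smallest and largest adjusted p of each role list. All other genes named were chosen after their values were seen. Members and lists were chosen with earlier results of these data known.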

Additional observations from a re-analysis of the deposited data

How the results depend on the processing

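Main edgeR calls among the flanking genes numbered 0 and stayed 0 with DESeq2 size factors, upper-quartile factors, limma-voom, a looser filter (10 counts in at least 5 libraries) and a stricter one (10 counts in all 10). DESeq2 called 5 (4 higher, 1 lower), and edgeR without a low-count filter called 3 (2 higher, 1 lower). Leaving out 1 library gave 0 to 2 calls, with 0 to 2 higher and 0 to 2 lower. The calls came without K1 (1700096K18Rik and Slc4a2), without K2 (1700096K18Rik) and without W1 (Insig1 and Fam126a). The cause was not tested.

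Of 509 refitted values of 30 named genes, 458 kept direction and side of the threshold, 13 passed it and 38 changed sign. The sign changes were in 9 genes near 0. With upper-quartile factors Rbm33 was 0.01, Pisd 0.00 and Babam2 0.00, and with limma-voom Rbm33 was 0.02 and Babam2 0.01 (log2). With 1 library left out, log2 fold changes ran from -0.10 to 0.16 for Garem2, -0.06 to 0.03 for Mrfap1, -0.11 to 0.06 for Rbm33, -0.09 to 0.12 for Evc, -0.04 to 0.05 for Nsg1, -0.06 to 0.04 for Pisd, -0.09 to 0.07 for Agbl5, -0.05 to 0.03 for Tbc1d14 and -0.04 to 0.06 for Babam2.

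The count of genes whose groups do not overlap was 7, and 6, 6 and 7 with DESeq2, upper-quartile and total-count scaling, alternatives chosen after seeing the data. The genes themselves changed. Lmbr1 and Fam126a dropped out with DESeq2 factors, Fam185a with upper-quartile factors and Emilin1 with total counts. Kmt2e came in with DESeq2 factors and Add1 with total counts. Only Gm42528, Galnt11 and Plk-ps1 were among them under every scaling. Adjusted p ran from 0.0178 to 0.144 over the alternatives for Fam126a and from 0.00801 to 0.177 for 1700096K18Rik. No paired analysis was possible because the labels carry no replicate numbers. Depth limits the genes of low level, whose intervals are wide.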
